A study of Mus musculus with 21 samples.

Results

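Ghrh, Cyp1b1, Gad2, Scg2, Xdh, Ptgds and Ecrg4 are 7 of the 24594 genes counted in these libraries, and were chosen by their counts at 3 stages of the neural crest of the mouse outer ear, where each was nearly on at some stages and off at others. The stage values are therefore given as a description, without a test. All 7 were found by gene symbol in both count tables.

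Cranial neural crest cells are migratory embryonic cells that fill the pharyngeal arches and form facial skeleton, dermis and connective tissue. The second arch (PA2) gives rise to the pinna, the external ear. The stage series held cells of PA2 at E10.5 (days of embryonic development) and of the pinna at E12.5 and E14.5, all WT, from embryos carrying Wnt1::Cre and a ROSA RFP reporter, so that cells with a history of Wnt1 expression were collected by FACS. Tissue was dissociated with trypsin at E10.5 and E12.5 and with papain at E14.5. Stage and tissue (PA2 or pinna) therefore cannot be told apart between E10.5 and E12.5, nor stage and digestion between E12.5 and E14.5. Between E10.5 and E14.5 stage, tissue and digestion all differ together. The genotype series was made at E10.5 from dissected PA2 and from the arch behind it (PA3). Embryos were WT or homozygous for a CRISPR/Cas9 deletion of HIRE1 (labelled HIRE1del/del, here HIRE1del). HIRE1 is a distal region that the authors report as required for Hoxa2 and Hoxa3 expression in cranial neural crest. The mice had a mixed C57Bl/6J;CD1 background, and males and females were pooled. Each of the 7 groups had 3 libraries described as biological replicates.

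The stage libraries held 25814151 to 49058941 counts and the genotype libraries 25804446 to 32210131. Hoxa2 was at 73.4 to 84.2 CPM (reads of a gene scaled to a common library total) in WT libraries of PA2, against 4.75 to 7.09 CPM with the deletion. In PA3 it was at 56.1 to 65.1 CPM in WT and at 22.1 to 25.6 CPM with the deletion, so that the genotype labels and this gene went together in all 12 libraries. Although every library is labelled as cranial neural crest cells, 7 erythroid genes summed to 1528 to 24515 CPM in the genotype series against 1.84 to 14.6 CPM in the sorted series, and 8 endothelial genes summed to 327 to 428 CPM against 17.6 to 182. The series were therefore not tested against each other. In bulk libraries fewer cells of a type and less RNA per cell cannot be told apart.

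The 7 genes belong to different branches of signalling and metabolism. Ghrh encodes the releasing hormone by which the hypothalamus drives growth hormone secretion, Gad2 encodes a glutamate decarboxylase that makes the transmitter GABA, and Scg2 encodes secretogranin II, a granin of secretory vesicles that is cut into peptides. Xdh encodes the molybdenum enzyme that makes uric acid from purines, Ptgds a lipocalin-type synthase of prostaglandin D2, Ecrg4 the secreted precursor augurin, and Cyp1b1 a cytochrome P450 that oxidizes steroids and retinoids and is a target of the aryl hydrocarbon receptor.

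On GRCm38 with GENCODE M21, Ghrh lies at chr2:157329497-157347506 (minus strand), Gad2 at chr2:22622205-22693874 (plus), Ptgds at chr2:25466709-25470046 (minus), Scg2 at chr1:79434669-79440120 (minus), Ecrg4 at chr1:43730602-43742578 (plus), Xdh at chr17:73883895-73950196 (minus) and Cyp1b1 at chr17:79701537-79715061 (minus). Exons of each of the 7 genes shared 0 bases with exons of other annotated genes, so that overlap on the opposite strand does not enter their counts. A RefSeq promoter (build GRCm38.p6) was matched by symbol for 6 of the 7 genes, and Xdh was not matched. The 250 bases before a start were searched on both strands for 5 motifs. The cAMP response element TGACGTCA was found in 1.55% of 32851 such windows, and GCGTG, the core bound by the aryl hydrocarbon receptor, in 28.2%. The TATA element TATAAA was found in 12.4% of them. The CCAAT box occurred in 33.8%. The share with the GC box, written GGGCGG, was 32.7%. The windows below are shown for the genes with the sharpest drops to 0 (Ghrh and Cyp1b1) and for the genes that were high only at E14.5 or far higher there (Scg2, Ptgds and Ecrg4), with every match in capitals.
Ghrh (second start, chr2:157337427-157337676, minus strand): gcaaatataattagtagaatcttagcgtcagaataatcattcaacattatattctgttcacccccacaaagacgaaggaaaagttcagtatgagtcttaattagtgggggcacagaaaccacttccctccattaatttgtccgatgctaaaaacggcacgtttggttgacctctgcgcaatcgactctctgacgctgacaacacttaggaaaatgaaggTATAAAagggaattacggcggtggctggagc
Cyp1b1 (chr17:79715062-79715311, minus strand): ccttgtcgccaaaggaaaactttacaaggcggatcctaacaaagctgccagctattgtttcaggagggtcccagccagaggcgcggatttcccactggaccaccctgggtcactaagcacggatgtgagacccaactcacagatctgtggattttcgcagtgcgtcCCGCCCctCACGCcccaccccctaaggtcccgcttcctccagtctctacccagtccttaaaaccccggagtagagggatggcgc
Scg2 (chr1:79440027-79440276, minus strand): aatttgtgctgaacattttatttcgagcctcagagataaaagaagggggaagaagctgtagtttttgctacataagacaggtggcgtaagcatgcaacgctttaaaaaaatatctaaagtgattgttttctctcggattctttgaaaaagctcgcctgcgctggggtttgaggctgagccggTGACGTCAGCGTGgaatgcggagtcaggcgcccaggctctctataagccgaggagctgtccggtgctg
Ptgds (chr2:25469750-25469999, minus strand): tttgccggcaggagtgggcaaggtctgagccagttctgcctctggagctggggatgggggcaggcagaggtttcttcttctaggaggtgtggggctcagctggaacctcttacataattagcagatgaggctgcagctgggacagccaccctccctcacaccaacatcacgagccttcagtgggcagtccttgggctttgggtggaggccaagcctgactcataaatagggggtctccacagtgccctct
Ecrg4 (chr1:43730352-43730601, plus strand): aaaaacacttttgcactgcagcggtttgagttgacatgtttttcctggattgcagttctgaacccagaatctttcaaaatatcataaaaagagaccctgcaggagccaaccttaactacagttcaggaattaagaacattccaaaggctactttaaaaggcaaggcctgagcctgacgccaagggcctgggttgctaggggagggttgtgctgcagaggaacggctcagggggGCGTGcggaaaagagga

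The Scg2 window held TGACGTCA at 68 to 61 bases before the start, followed without overlap by GCGTG at 60 to 56. The Cyp1b1 window held GGGCGG at 84 to 79 and GCGTG at 76 to 72 bases before the start, both on the opposite strand. TATAAA lay at 31 to 26 bases before the second Ghrh start, while the window of the first start (chr2:157346656-157346905) held none of the 5 motifs. The counts were made over all exons of a gene and do not separate the Ghrh starts. Ecrg4 held GCGTG at 17 to 13 bases before its start, and the Ptgds window held none of the 5. The Gad2 window held CCAAT, and GCGTG once on each strand. These are matches of letters, and binding was not measured. The number of CG dinucleotides ranged from 2 in the Ptgds window to 13 in those of Scg2 and Gad2, against a median of 6 over all windows.

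CPM were scaled by TMM, a normalization that takes most genes as not changed. In this series 3 counts, taken as the floor of a library, corresponded to 0.0631 to 0.111 CPM. Ghrh was on at the first pair of stages and off at the last. It was at 1.94, 1.3 and 2.12 CPM in the E10.5 libraries, at 7.2, 8.68 and 9.48 CPM in the E12.5 libraries and at 0, 0.021 and 0 CPM at E14.5, where 1 read was counted in all. No E12.5 library overlapped with any E10.5 or E14.5 library. The mean was 4.73-fold higher at E12.5 (8.46 ± 1.16 CPM, SD, n = 3) than at E10.5 (1.79 ± 0.43). The ratio of E12.5 to E14.5 was 1178, with a 95% interval of 211 to 46585 that covers counting error only.

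Cyp1b1 was lower at each later stage. It was at 17.5, 15.8 and 15.3 CPM at E10.5 and at 1.19, 0.686 and 1.19 CPM at E12.5, and 0 reads were counted in each of the 3 E14.5 libraries, which are the deepest of the series. The mean at E10.5 (16.2 ± 1.17 CPM) was 15.9-fold that at E12.5 (1.02 ± 0.291), and E14.5 was at least 15.5-fold lower than E12.5 against the floor of 3 counts per library. Cyp1b1 was 1 of 2 genes with 0 counts in all E14.5 libraries and a mean of at least 10 CPM at E10.5. At a mean of at least 1 CPM there were 10 such genes. These counts use the stage values by which Cyp1b1 was chosen.

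Gad2 came on between E10.5 and E12.5 and stayed on. Its libraries were at 0, 0 and 0.0654 CPM at E10.5, at 13.5, 15.4 and 18.1 at E12.5 and at 11.5, 16 and 10.8 at E14.5. The E12.5 and E14.5 libraries overlapped, and their means were 15.7 ± 2.31 and 12.8 ± 2.84 CPM. The ratio of E12.5 to E10.5 was 705 (95% counting interval 195 to 5827), resting on 2 reads at E10.5.

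**Figure D1:**
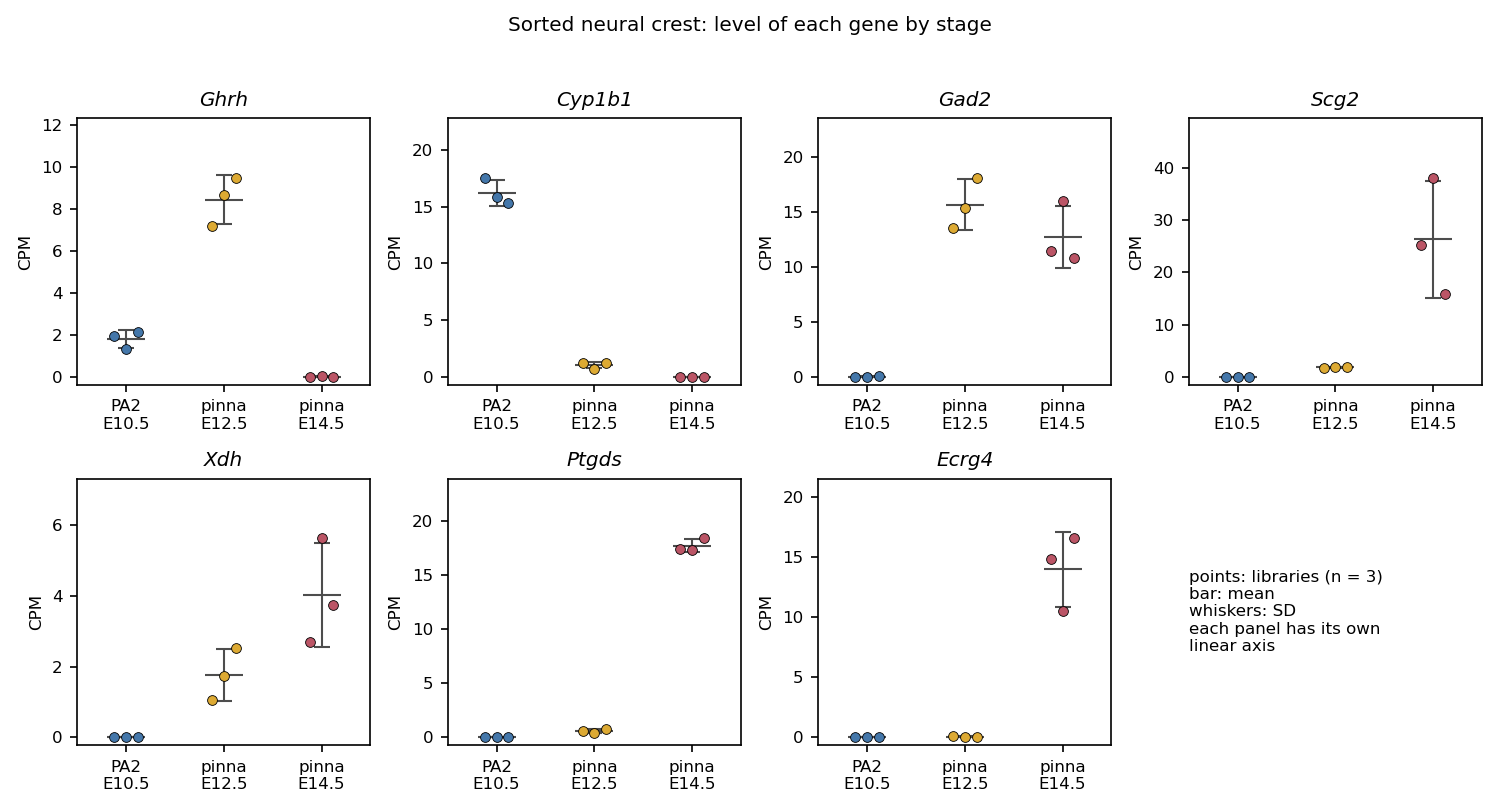
CPM of the 7 genes (y axis, linear, 1 scale per panel) in the sorted neural crest of PA2 at E10.5 and of the pinna at E12.5 and E14.5. Points are libraries, horizontal bars means and whiskers SD (n = 3). Ghrh peaks at E12.5 with a mean of 8.46 CPM, Cyp1b1 is highest at E10.5 with 16.2 CPM, and Ptgds and Ecrg4 reach 17.8 and 14 CPM at E14.5.

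Scg2 and Xdh had 0 counts in all 3 E10.5 libraries and were present at both later stages. Scg2 was at 1.71, 1.96 and 1.8 CPM at E12.5 and at 25.2, 38.1 and 15.8 CPM at E14.5. The E12.5 mean (1.82 ± 0.127 CPM) was at least 17.7-fold above the floor at E10.5, and the E14.5 mean (26.4 ± 11.2 CPM) was higher again by 3.86 on the log2 scale. The replicates of Scg2 at E14.5 spread 2.41-fold from lowest to highest. Only 0.507% of the 4336 tested genes within 2-fold of its mean spread at least as far, and their median was 1.15-fold. Xdh was at 1.04, 1.73 and 2.52 CPM at E12.5 and at 2.71, 5.63 and 3.74 CPM at E14.5. Its E14.5 libraries all lay above its E12.5 libraries, with means of 4.03 ± 1.48 and 1.76 ± 0.738 CPM. The highest E14.5 library was replicate 2 for Scg2, Xdh and Gad2 alike. In that replicate 8 neuronal marker genes summed to 17.7 CPM against 11.3 and 13 in the other two, and 8 fibroblast genes to 38700 CPM against 49107 and 54311. Crest mesenchyme and macrophage sums were also highest there (4070 and 12.6 CPM), and the muscle sum was lowest (13.2 CPM). The glial sum was 119 CPM against 105 and 119. Endothelial, epithelial and erythroid sums lay between those of the other libraries. The part of this makeup in the 3 genes was not tested.

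Ptgds and Ecrg4 were the genes of E14.5. Ptgds had 0 counts at E10.5, was at 0.557, 0.392 and 0.748 CPM at E12.5 and at 17.5, 17.4 and 18.4 CPM at E14.5, which is 31.4-fold higher between the means of the last pair of stages. Its E14.5 replicates spread only 1.06-fold, below the median of 1.17-fold of the 3780 tested genes of like level. Ecrg4 had 1 read in all E10.5 libraries together and 4 in those of E12.5, and was at 14.8, 10.51 and 16.6 CPM at E14.5. Its ratio of E14.5 to E12.5 was 303 (95% counting interval 118 to 1112). At E10.5 and E12.5 no library of Ecrg4 exceeded the floor, so that no fold is given between them. Of all genes counted, 7 had 0 counts at E10.5 and a mean of at least 10 CPM at E14.5, and Scg2 and Ptgds were among them. At a mean of at least 1 CPM there were 44, with Xdh also among them. The members were chosen by these same stage values.

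Per kilobase of exon, Cyp1b1 (2.62 to 3 CPM per kb) and Ghrh (1.95 to 3.18) overlapped at E10.5 and were the only members above the floor. At E12.5 Ghrh led with 10.8 to 14.2 CPM per kb, followed by Gad2 (2.3 to 3.08) and Scg2 (0.679 to 0.779), then Ptgds (0.238 to 0.453) and Cyp1b1 (0.117 to 0.204), both of which overlapped with Xdh (0.113 to 0.274). At E14.5 Ecrg4 (11.7 to 18.4) and Ptgds (10.54 to 11.2) did not overlap each other, Scg2 (6.29 to 15.2) overlapped both, and Gad2 (1.84 to 2.73) and Xdh (0.295 to 0.614) lay below. The order thus differed at each stage.

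The genes most like each member were taken as the 3 with the smallest root mean square difference in mean-centred log2 CPM over the 9 stage libraries. Ghrh was closest to Nefm and Nefl, which encode neurofilaments, and to the transcription factor gene Shox2, at differences of 0.57, 0.92 and 0.87. Nefm and Nefl share 1108 exon bases on opposite strands, so their counts are not independent. Mean Nefm was at 2.67 CPM at E10.5, at 11.1 CPM at E12.5 and at 0.108 CPM at E14.5. The genes closest to Cyp1b1 included the transcription factor genes Gsc (0.54) and Foxc2 (0.6). Gad2 was closest to Pamr1 (0.33), to Tac1 (0.46), the precursor gene of substance P, and to Csmd1 (0.48).

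Scg2 was closest to Tenm1 (0.49), Nt5e (0.5) and Foxl2os (0.56). Ptgds was closest to Prok2 (0.3), which encodes a secreted prokineticin, to the transcription factor gene Hlf (0.37) and to the neuromedin receptor gene Nmur2 (0.44). Ecrg4 was closest to the anion transporter gene Slc26a7 (0.25), to Thy1 (0.53), which encodes a surface glycoprotein, and to Mrgprf (0.62). Xdh was closest to AI197445 (0.36), Itgbl1 (0.37) and C030034L19Rik (0.4), the last of which shares 43.6% of its exonic bases with Zfp704 on the opposite strand. With Pearson correlation in place of the difference, 0 or 1 of the 3 genes was kept for each member, and with a prior count of 0.5 in place of 2, 1 or 2 were kept.

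The partner genes of the 7 pathways were counted over 122 genes in 7 lists, of which 76 passed the filter of 1 CPM in 2 libraries in the stage series and 76 in the genotype series. Across them 58 were called between E12.5 and E10.5 (38 higher, 20 lower), 54 between E14.5 and E12.5 (38 higher, 16 lower) and 68 between E14.5 and E10.5 (46 higher, 22 lower) by edgeR at an adjusted p under 0.05. Of all 13438 genes tested, 68.8%, 65.7% and 82.0% were called in these comparisons, with 35.0%, 32.6% and 42.0% higher and 33.7%, 33.1% and 40.0% lower. The median log2 fold change of the 76 genes was 0.32, 0.30 and 0.75, against 0.01, -0.01 and 0.02 over all genes. Between E14.5 and E12.5, scaling by total counts alone shifted all genes by -0.12 on the log2 scale and left 3517 of 9130 called genes higher, against 4382 of 8824 with TMM. The lists share their 3 stage groups, and each comparison is given on its own.

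In the GHRH list (21 genes, 7 tested) the receptor gene Ghrhr, chosen after its values were seen, had 0 counts in all 9 sorted libraries. Ghr, the growth hormone receptor gene, rose from stage to stage. It was at 18.1 ± 0.908, 53.3 ± 0.942 and 152 ± 8.01 CPM (E14.5 against E10.5, log2 fold change 3.08, SE 0.0662, adjusted p 1.86e-11). Among somatostatin receptor genes Sstr1 rose by 3.46 (SE 0.574, adjusted p 0.000154, and 8.49e-05 without a filter) between E10.5 and E14.5. Its levels were 0.0893 to 1.02 CPM, and it passed the filter only through the later stages. Sstr4 fell by 2.32 (SE 0.288, adjusted p 2.62e-05) between E10.5 and E12.5. In all, 4 were higher and 2 lower at E14.5 than at E10.5.

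In the GABA list (23 genes, 13 tested) 9 genes were higher and 4 lower at E14.5 than at E10.5, and receptor subunits were found in both directions. The subunit gene Gabra3, named here after its values were seen, fell from a mean of 9.53 CPM at E10.5 to 2.24 CPM at E14.5 (log2 fold change -2.08, SE 0.288, adjusted p 3.47e-05). Gabrb1 was at 0.212 ± 0.0473, 1.77 ± 0.264 and 8.99 ± 0.486 CPM (log2 fold change 5.38, SE 0.225, adjusted p 1.43e-09) and Gabra2 at 0.487 ± 0.243, 2.34 ± 0.16 and 8.18 ± 1.66 CPM (4.05, SE 0.291, adjusted p 1.2e-07). Both passed the filter only through the later stages. Without a filter the adjusted p (edgeR) was 1.43e-11 for Gabrb1 and 2.37e-09 for Gabra2. The GABA transporter gene Slc6a11 rose by 4.16 (SE 0.776, adjusted p 0.000574, and 0.000171 without a filter) between E10.5 and E12.5. It went from 0.0552 to 1.06 CPM and passed the filter only through the later stages. The following were chosen after their values were seen. Gad1, which encodes the other glutamate decarboxylase, did not pass the filter in the stage series and was at 0.988 ± 0.584, 0.0711 ± 0.0618 and 0.253 ± 0.0282 CPM, and Slc32a1, which encodes the transporter that loads GABA into vesicles, had 0 counts in all 9 libraries. The 8 neuronal marker genes summed to 37.5 to 43.7 CPM at E10.5, 30.5 to 36.3 at E12.5 and 11.3 to 17.7 at E14.5, with Neurod1 at 0 counts at E10.5 and E14.5. Of the 4 neuronal genes tested, 2 were higher and 2 lower at E14.5 than at E10.5. The part of neurons in the levels of Gad2 and Scg2 was not tested.

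In the granin list (14 genes, 7 tested) Chga and Chgb, chosen after their values were seen, remained low while Scg2 reached 26.4 CPM. Chga was at 0.0109 to 0.0579 CPM and Chgb at 0.19 to 0.561 CPM over the 3 stages. Pcsk6, which encodes a proprotein convertase, rose by 2.32 (SE 0.181, adjusted p 8.95e-07) from E12.5 to E14.5, and Scg5, which encodes a chaperone of a convertase, fell by 2.26 (SE 0.212, adjusted p 3.78e-06). Cpe, the carboxypeptidase E gene, rose by 1.24 (SE 0.0995, adjusted p 8.31e-07) from E10.5 to E12.5, from 92.1 to 218 CPM. Of the 7 tested genes 5 were higher and 1 lower at E14.5 than at E10.5.

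In the purine list (19 genes, 15 tested) 7 genes were higher and 6 lower at E14.5 than at E10.5. Nt5e, which encodes the ectonucleotidase CD73, was at 0.981 ± 0.0723, 63.2 ± 4.27 and 684 ± 29.1 CPM, a rise of 9.44 on the log2 scale (SE 0.102, adjusted p 2.15e-13). Mocos encodes the sulfurase that activates the molybdenum cofactor of xanthine dehydrogenase. It had 2 counts in all at E10.5 and reached 1.82 ± 0.491 CPM at E14.5. The adjusted p was 8.87e-07, and 1.33e-07 without a filter, which Mocos passed only through later stages. Ampd3, an AMP deaminase gene, rose by 5.24 (SE 0.294, adjusted p 1.5e-08).

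In the prostaglandin list (24 genes, 21 tested) 12 genes were higher and 6 lower at E14.5 than at E10.5. Slco2a1, the prostaglandin transporter gene, was at 1.13 ± 0.357, 73 ± 7.94 and 49.3 ± 9.46 CPM and rose between E10.5 and E12.5 (adjusted p 2.17e-09). Hpgds, which encodes the hematopoietic prostaglandin D synthase, rose by 4.71 (SE 0.549, adjusted p 8.12e-06) but reached only 1.26 ± 0.156 CPM at E14.5, when Ptgds was at 17.8 ± 0.579. Hpgds passed the filter only through later stages, and its adjusted p (edgeR) was 4.14e-06 without a filter. Ptgfr, the prostaglandin F receptor gene, rose by 4.47 (SE 0.245, adjusted p 1.24e-08). The prostaglandin D2 receptor gene Ptgdr2, chosen after its values were seen, rose by 1.84 (SE 0.335, adjusted p 0.000558) from E12.5 to E14.5.

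In the aryl hydrocarbon receptor list (14 genes, 9 tested) 6 genes were higher and 3 lower at E14.5 than at E10.5. The receptor gene Ahr was at 2.28 ± 0.213, 5.63 ± 0.453 and 77.6 ± 9.06 CPM, a rise of 5.09 (SE 0.121, adjusted p 2.9e-11), in the libraries in which Cyp1b1 went from 16.2 CPM to 0 counts. Aldh3a1 had 0 counts at E10.5 and E12.5 and was at 1.17 ± 0.331 CPM at E14.5 (adjusted p 4.97e-05, and 6.01e-06 without a filter, which it passed only through E14.5). Cyp2s1, another P450 gene of the list, fell by 2.53 (SE 0.17, adjusted p 2.25e-07) from E10.5 to E12.5. In the list of proposed augurin receptors (7 genes, 4 tested), with 3 higher and 0 lower at E14.5 than at E10.5, Cd36 rose by 3.01 (SE 0.706, adjusted p 0.00266) between E10.5 and E12.5. Scarf1 rose by 2.92 (SE 0.412, adjusted p 8.45e-05) and Stab1 by 1.43 (SE 0.411, adjusted p 0.00977) between E12.5 and E14.5. Over the same step the 8 endothelial marker genes went from sums of 24.3 to 34.7 CPM to 117 to 182 CPM. Of them 2 of 6 tested were higher, against 32.6% of all genes, and Cldn5 was at 0 counts. The 8 macrophage genes went from 3.79 to 4.59 CPM to 7.22 to 12.6 CPM (2 of 2 tested higher, Tyrobp at 0 counts at E12.5). The part of endothelial cells and macrophages in these changes was not tested.

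**Figure D2:**
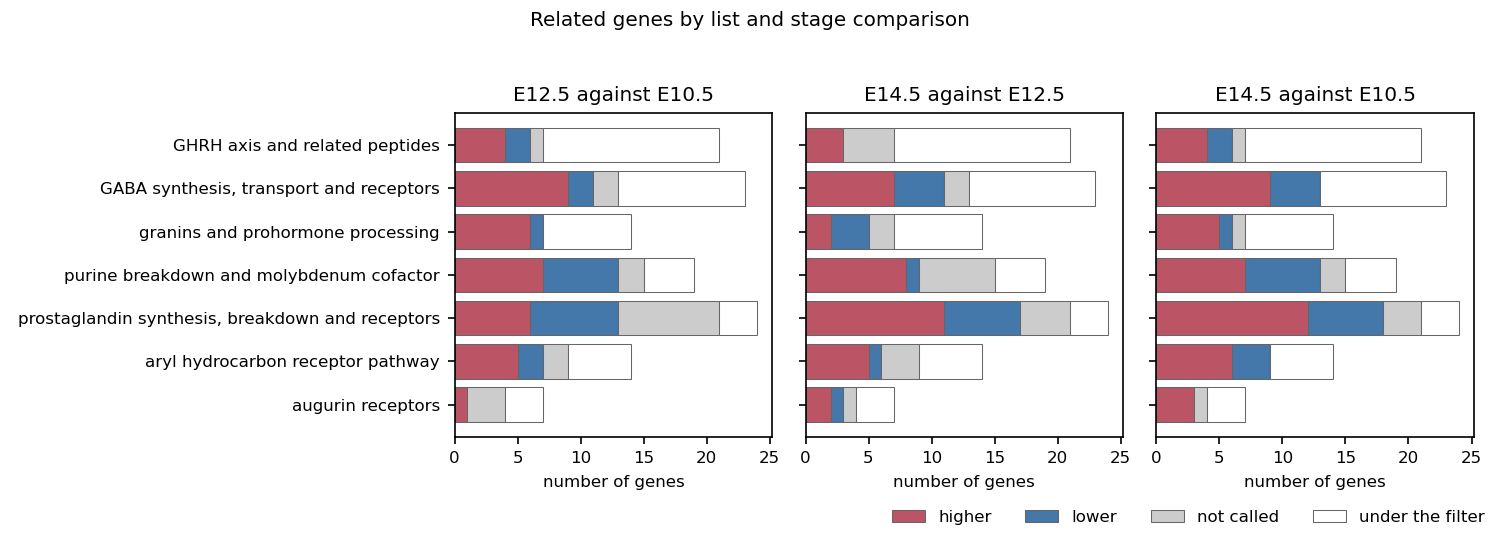
Number of genes (x axis) of the 7 lists of partner genes that were higher, lower or not called in each stage comparison (edgeR, adjusted p under 0.05), with genes under the filter in white. Over all lists 38, 38 and 46 genes were higher and 20, 16 and 22 lower.

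In the genotype series 3 counts corresponded to 0.0924 to 0.117 CPM, and 2 of the 7 genes passed the filter of 1 CPM in 2 libraries. Cyp1b1 passed in all 12 libraries, and Ghrh through 1 library each of PA2 WT and PA2 HIRE1del. The other 5 were near the floor, with at most 16 counts in a library, and are given from a fit without a filter over 20938 genes.

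Loss of HIRE1 was not followed by a called change in any member. Cyp1b1 was at 38.4, 32.1 and 34.4 CPM in PA2 WT and at 33, 32 and 28.2 in PA2 HIRE1del (log2 fold change -0.17, SE 0.195, adjusted p 0.865, edgeR). The groups overlapped. In PA3 it was at 62.3, 40.7 and 40.6 CPM in WT and at 47.4, 58.1 and 32.4 in HIRE1del (-0.06, SE 0.191, adjusted p 0.952). Ghrh was at 0.581, 1.16 and 0.954 CPM in PA2 WT and at 0.564, 0.662 and 1.26 in PA2 HIRE1del (-0.12, SE 0.358, adjusted p 0.958). In PA3 it was at 0.115, 0.143 and 0.193 CPM in WT and at 0.112, 0.0699 and 0.0695 in HIRE1del (-0.83, SE 0.676, adjusted p 0.733). Thus 0 of 2 members were called in either arch and 0 of 7 without the filter, where 0.438% of all genes were called in PA2 and 0.216% in PA3 (0.406% and 0.186% without the filter). Of all genes, 0.118% were higher and 0.320% lower in PA2, and 0.0556% higher and 0.160% lower in PA3. For Gad2, Scg2, Xdh, Ptgds and Ecrg4 the depth cannot show a difference of moderate size. Ptgds had 0 counts in all PA2 libraries of both genotypes. At an unadjusted p under 0.05 there were 0 of 2 members, and 1 of 7 without the filter, which was Xdh in PA3. Of all 14383 genes tested with the filter, 1233 in PA2 and 1400 in PA3 had an unadjusted p under 0.05 (edgeR). Limma-voom called 0 of 2, and DESeq2 called Cyp1b1 in neither arch and gave Ghrh no adjusted p. The interaction of genotype and arch was called for 0 of 2 members by edgeR, DESeq2 and limma-voom (0.0487% of all genes by edgeR, 0.0382% without the filter). At an unadjusted p under 0.05 (edgeR) there were 0 of 2 members and 794 of all 14383 genes.

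The xanthine dehydrogenase gene was counted 11, 15 and 16 times in the PA3 WT libraries and 3, 1 and 7 times in those of PA3 HIRE1del. These counts correspond to 0.491 ± 0.0613 and 0.13 ± 0.105 CPM. The log2 fold change was -1.87 (SE 0.809, unadjusted p 0.0332, adjusted p 0.592, edgeR without a filter). The gene is shown for its unadjusted p, and it was not called. In PA2 the counts were 0, 5 and 1 in WT and 0, 2 and 8 in HIRE1del. The Xdh interaction did not pass (2.70, SE 1.35, adjusted p 0.992).

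**Figure D3:**
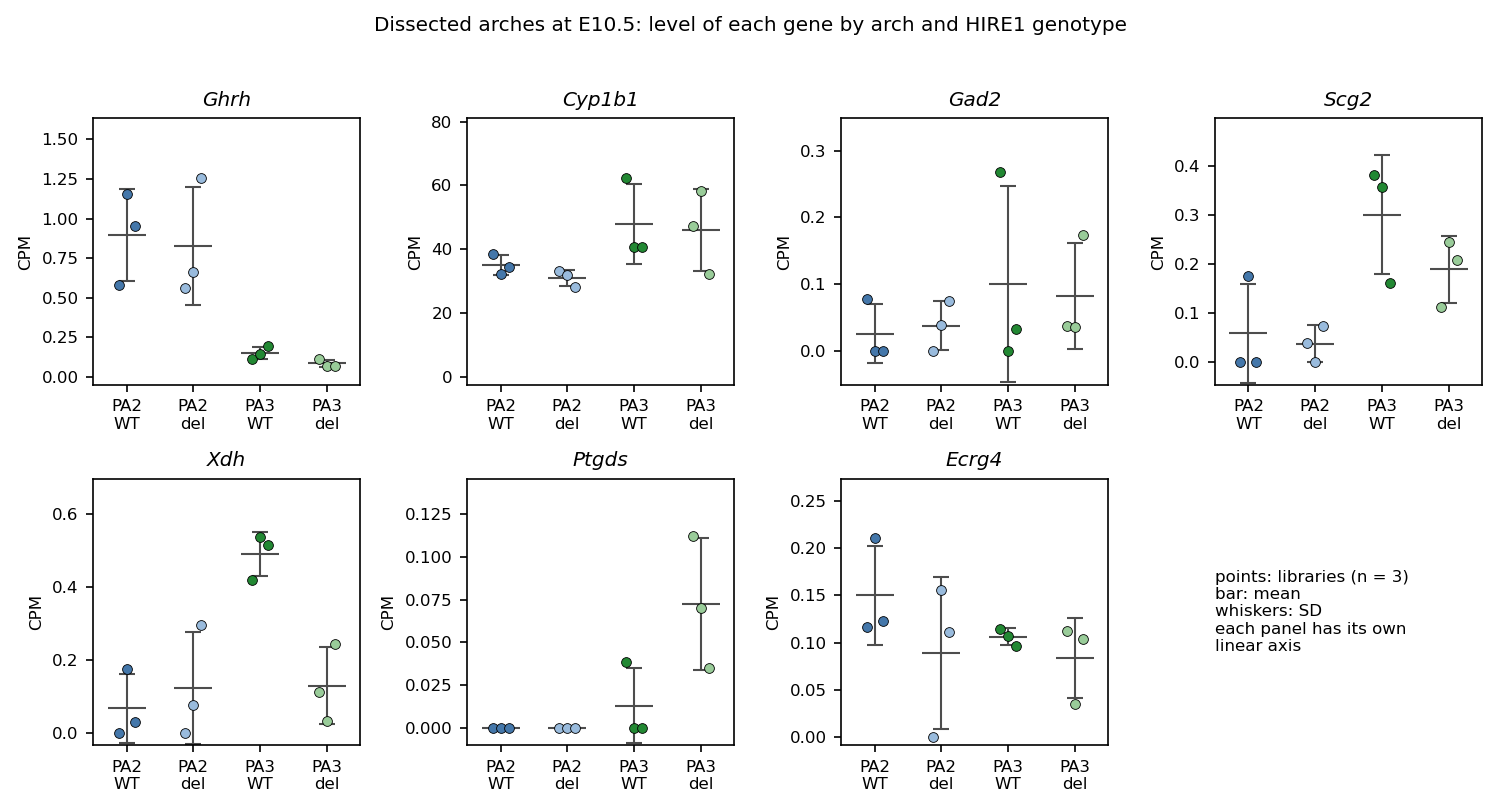
CPM of the 7 genes (y axis, linear, 1 scale per panel) in dissected arches of E10.5 embryos, WT or with the deletion (del). Points are libraries, horizontal bars means and whiskers SD (n = 3). Only Cyp1b1 stands far above the floor, with means of 31.1 to 47.9 CPM, while Ghrh is at 0.828 to 0.898 CPM in PA2 and at 0.0839 to 0.15 in PA3.

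Between arches, Ghrh was lower in PA3 than in PA2 in both genotypes. Every PA3 library lay below every PA2 library. In WT the means were 0.898 ± 0.292 CPM in PA2 and 0.15 ± 0.0396 in PA3, a log2 fold change of -2.53 (SE 0.457, adjusted p 0.000882), and in HIRE1del 0.828 ± 0.375 and 0.0839 ± 0.0245 CPM, a log2 fold change of -3.25 (SE 0.52, adjusted p 0.000409). PA2 and PA3 differed widely, with 36.5% of all genes called in WT and 33.4% in HIRE1del. Since Ghrh passed the filter only through PA2, where it was high, it was also tested without a filter. It then differed by -2.55 (adjusted p 0.000659) and -3.26 (adjusted p 0.000215), against 25.8% and 23.7% of all genes called. In that fit it remained called with each of the 12 libraries left out in turn (adjusted p 0.000501 to 0.00441 in WT, 0.000194 to 0.00167 in HIRE1del).

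Cyp1b1 was higher in PA3, by a smaller amount. In WT the difference was 0.45 on the log2 scale (SE 0.192, adjusted p 0.0817), and in HIRE1del 0.56 (SE 0.194, adjusted p 0.0385). The latter call was lost without any 1 of the 3 PA2 HIRE1del libraries or PA3 HIRE1del replicate 1 or 2 (adjusted p 0.0641 to 0.179), and with limma-voom (0.0663). In WT it was called without PA3 HIRE1del replicate 2 or 3 (0.0486 and 0.0313) and with the WT libraries alone (0.0459). PA2 and PA3 libraries of the same genotype and replicate number deviated together, and with genotype and number together as a block Cyp1b1 was called in both genotypes (adjusted p 0.00758 in WT, 0.00252 in HIRE1del). Averaged over both genotypes, a contrast added after seeing the data in which 50.1% of all genes were called, it differed by 0.51 (SE 0.136, adjusted p 0.00709).

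**Figure D4:**
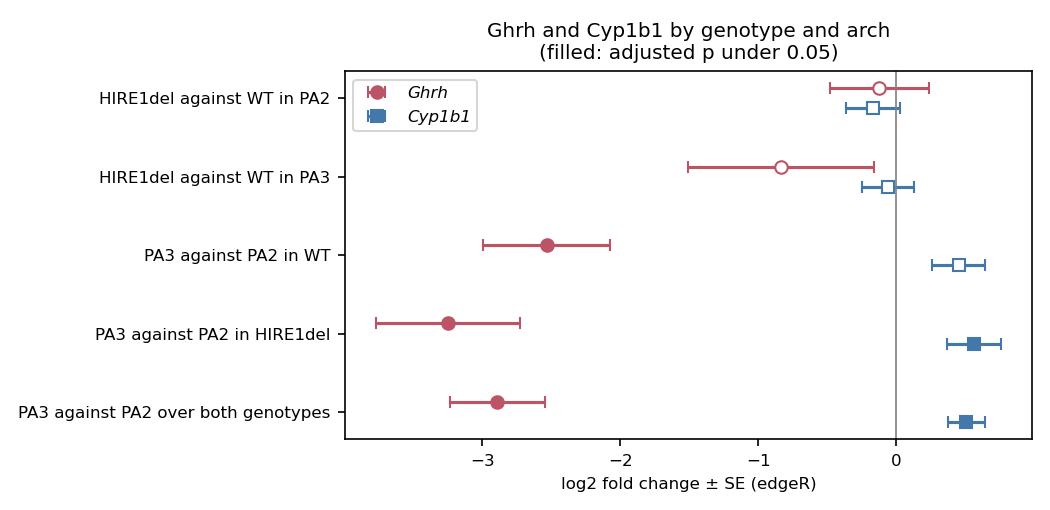
log2 fold changes (x axis) of Ghrh (circles) and Cyp1b1 (squares) from edgeR in the genotype series, with SE as whiskers and filled symbols at an adjusted p under 0.05. Ghrh lies at -2.53, -3.25 and -2.89 between the arches and Cyp1b1 at 0.45, 0.56 and 0.51, and all 4 genotype values are open.

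Of the rare members, Xdh was higher in PA3 than in PA2 in WT by 2.74 (SE 0.889, adjusted p 0.0296, edgeR without a filter), and the WT groups did not overlap. It did not pass when PA2 WT replicate 1 or 3, or PA3 WT replicate 2 or 3, was left out (adjusted p 0.0618 to 0.113). In HIRE1del the difference was 0.04 (SE 0.964, adjusted p 1). In WT libraries Scg2 was counted 0, 5 and 0 times in PA2 and 10, 10 and 5 times in PA3. With the deletion the counts were 1, 0 and 2 in PA2 and 3, 7 and 6 in PA3. It was not called within WT (2.26, adjusted p 0.0817) or within HIRE1del (2.18, adjusted p 0.158), but was called over both (2.22, SE 0.701, adjusted p 0.0178, against 37.1% of all genes). Gad2 (0 to 7 counts a library), Ecrg4 (0 to 6) and Ptgds (0 to 3) were not called between arches. For these 3 genes the depth cannot show a difference of moderate size.

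Among the partner genes 39 of 76 were called between PA3 and PA2 in WT (29 higher, 10 lower) and 38 in HIRE1del (28 higher, 10 lower), where 19.1% and 18.7% of all genes were higher and 17.4% and 14.7% lower, with medians of 0.23 and 0.18 on the log2 scale against 0.00 over all genes. The granin list held 8 called genes of 10 tested in either genotype. With the deletion, Chga had 3 counts in all of PA2 and was at 1.62 ± 1.09 CPM in PA3 (adjusted p 0.000337, and 6.24e-05 without a filter, which it passed only through PA3), and Scg3 was higher in PA3 by 4.21 (SE 0.725, adjusted p 0.000708). Chgb was higher by 3.18 (SE 0.521, adjusted p 0.00044) in WT. In the GHRH list Sst, the somatostatin gene, was higher in PA3 than in PA2 of WT by 4.57 (SE 0.805, adjusted p 0.000745, and 0.000154 without a filter, which it passed only through PA3). In HIRE1del Sstr2 was higher by 3.51 (SE 0.43, adjusted p 4.73e-05, and 9.93e-06 without a filter, which it passed only through PA3). Adcyap1r1 was lower by 0.86 in HIRE1del. In the purine list Gda, the guanine deaminase gene, was higher by 3.93 (SE 0.507, adjusted p 6.72e-05) in PA3 of WT.

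Nt5e was lower in PA3 of WT, at 1.97 ± 0.352 against 4.94 ± 1.1 CPM, and Ampd3 higher by 0.89 in HIRE1del. Of the prostaglandin genes Ptgs2, which encodes an inducible cyclooxygenase, was higher by 2.12 (SE 0.386, adjusted p 0.00105) and Ptgfr by 1.55 in HIRE1del, and Slco2a1 by 0.98 in WT. Of the GABA receptor genes Gabrg3 was higher by 1.51 in WT, and Gabra3 and Gabra4 were lower, at -1.26 and -0.59, in HIRE1del. Cyp2s1 was lower at -1.48 in HIRE1del and Ahr higher by 0.65 in WT. Cd36 was higher by 3.63 (SE 0.264, adjusted p 8.72e-07) and Stab1 by 0.29 in WT.

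Of the marker lists, 7 of 8 neuronal genes were called higher in PA3 of WT and 8 of 8 in HIRE1del, with sums of 57.5 to 79.3 CPM in PA2 and 138 to 245 in PA3, and none was at 0. Over all genes, 19.1% were called higher and 17.4% lower in WT, and 18.7% higher and 14.7% lower in HIRE1del. All 7 erythroid genes were called higher in both genotypes (1528 to 3325 CPM in PA2, 12393 to 24515 in PA3). The 8 crest mesenchyme genes summed to 991 to 1151 CPM in PA2 and 717 to 939 in PA3, with 4 lower and 1 higher in WT. With the deletion 4 were lower and 2 higher. Epithelial genes summed to 233 to 281 CPM in PA2 and 413 to 626 in PA3 (5 of 8 higher and 1 lower in each genotype), and glial genes to 35.7 to 54 and 92.7 to 139 CPM (2 of 5 tested higher in WT, 3 with the deletion). Endothelial genes summed to 327 to 348 CPM in PA2 and 387 to 428 in PA3, with 6 of 7 tested higher in WT and 5 with the deletion. Of 7 fibroblast genes tested, 4 were higher and 1 lower in each genotype. Of 6 muscle genes tested, 1 was higher and 2 lower in WT, and 2 higher and 1 lower with the deletion. Of 8 macrophage genes, 1 was higher in WT and 0 with the deletion, and 0 were lower. The part of this makeup in the arch differences of Ghrh, Cyp1b1, Xdh and Scg2 was not tested.

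For HIRE1del against WT 1 of the 76 partner genes was called in PA2 and 0 in PA3 or for the interaction. Of all genes, 0.438% were called in PA2, 0.216% in PA3 and 0.0487% for the interaction. The called partner gene was Hpgd, which encodes the dehydrogenase that breaks down prostaglandins and which was named after its values were seen. Hpgd was at 7.51 to 7.97 CPM in PA2 WT and 3.31 to 4.62 in PA2 HIRE1del (-0.97, SE 0.166, adjusted p 0.0199). With the filter it did not pass when any 1 of the 3 PA2 WT libraries, or PA2 HIRE1del replicate 1 or 2, was left out, and without the filter when PA2 WT replicate 3 or PA2 HIRE1del replicate 2 was.

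Side by side, with no test because the protocols differ, Cyp1b1 was at 15.3 to 17.5 CPM in sorted PA2 neural crest of E10.5 and at 32.1 to 38.4 CPM in PA2 WT of the genotype series. Ghrh was at 1.3 to 2.12 and 0.581 to 1.16 CPM. The other 5 genes had at most 2 counts in a sorted E10.5 library and at most 6 in a PA2 WT library.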

How the data were processed

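Gene counts were analysed for 9 libraries of the stage series and 12 of the genotype series. The authors made these counts with QuasR (spliced alignment to GRCm38/mm10, counting over exons of UCSC known genes) and deposited them without normalization. Orientation was set as opposite to the gene although the libraries are described as unstranded. The 18 genes named by an Entrez ID alone were kept in the fits, and 0 count columns were left unused.

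Each table was fitted in R 4.3.3 with edgeR 4.0.16 (quasi-likelihood test, two-sided, TMM scaling, 1 mean per group, genes of at least 1 CPM in at least 2 libraries). Adjustment was by Benjamini-Hochberg across every gene tested, and an adjusted p under 0.05 was called. DESeq2 1.42.0 and limma 3.58.1 (voom) served as alternatives, beside other scalings, filters, blocks and leaving out each library. The fit was tested on simulated counts. A group at 0 was set against 3 counts per library, and a ratio against a group with 1 to 3 counts in its highest library carries an exact 95% counting interval.

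The 7 genes, the partner lists and the marker lists were chosen with earlier results of these data known. Named partner genes are, per list, the 3 whose log2 fold change was largest in size and called in the stage series without overlap of replicates, and up to 3 called in the genotype series. Some genes that the rule selects are not reported here.

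Replicate numbers were checked by correlating deviations from group means. For the arches of each genotype, r for replicates 1, 2 and 3 was 0.355, 0.226 and 0.216 (WT) or 0.167, 0.244 and 0.317 (HIRE1del), all above 0.1, so these libraries were taken as paired from the data. What same-numbered libraries share is not stated in the labels. Other groups were not.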

Additional observations from a re-analysis of the deposited data

How the results depend on the processing

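All stage ratios kept their direction under DESeq2 size factors, total counts, 0.5 CPM added and each library left out. The members were chosen by these same stage values, so this describes the ratios and is no support for them. Members called between PA3 and PA2 in WT were 1, and 2 without a filter, with filterByExpr, with the replicate block and with the block of genotype and replicate number together (3 with that block and no filter). Leaving out 1 library gave 0 to 2, or 1 to 3 without a filter. In HIRE1del they were 2, and 1 with limma-voom, with the libraries of the contrast alone or at an adjusted p under 0.01, and 0 to 2 with 1 library left out (1 to 2 without a filter). DESeq2 without a filter gave 1. Over both genotypes they were 2, and 1 to 2 with 1 library left out. Without a filter they were 3, also with DESeq2 or the genotype and number block, and 3 to 4 with 1 library left out. Counts fell to 0 or 1 in part because Ghrh fell below the filter when PA2 WT replicate 2 or else PA2 HIRE1del replicate 3 was left out, or with the libraries of a contrast alone. At an adjusted p under 0.01 the partner genes called were 24 of 39 in WT and 25 of 38 in HIRE1del.

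For HIRE1del against WT in PA2, partner genes called were 1, and 2 without a filter, with limma-voom and with the replicate block (Hpgd and Cyp2s1), 3 with DESeq2 (also Pcsk5), 0 at an adjusted p under 0.01 and 0 to 1 with 1 library left out (0 to 2 without a filter). All 41 comparisons of partner genes that the naming rule selected were also called without a filter, in the same direction. In PA3 the replicate block gave 1 (Cd36) in place of 0. The blocks changed no other member call.

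Values that changed sign were all far from the threshold, with each library left out in turn. Ghrh in PA2 HIRE1del against WT became 0.11 without PA2 WT replicate 2 (no filter), 0.092 (0.099 without a filter) without PA2 HIRE1del replicate 1, and 0.013 (0.023) without replicate 2, over a filtered range of -0.34 to 0.092. Cyp1b1 in PA3 HIRE1del against WT became 0.18 (0.17) without PA3 WT replicate 1 and 0.14 (0.14) without PA3 HIRE1del replicate 3, over a range of -0.27 to 0.18. The Cyp1b1 interaction became 0.0049 without PA3 WT replicate 2 (no filter), 0.0087 (0.0052) without PA3 WT replicate 3 and 0.11 (0.10) without PA3 HIRE1del replicate 2, over a range of -0.34 to 0.11. Without a filter, Xdh became -0.78 for HIRE1del against WT in PA2 without PA2 HIRE1del replicate 3, and -0.53, -0.20 and -0.78 for PA3 against PA2 in HIRE1del without PA2 HIRE1del replicate 1, replicate 2 and PA3 HIRE1del replicate 3. The unfiltered fits with a library left out, with DESeq2 or with the genotype and number block, those of the named partner genes, and the contrast over both genotypes, were added after seeing the data.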
